A study of Mus musculus with 2 samples.

Results

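The miR-29 family was followed in B16 cells, a mouse melanoma line, through the 3 array probes named mmu-miR-29a-3p, mmu-miR-29b-3p and mmu-miR-29c-3p, chosen by name among 1900 miRNA probes. One group of cells was transfected with Control-siRNA and the other with Fam222B-siRNA, a small interfering RNA against the transcript of the gene Fam222B. All cells shared the same medium with 5% serum, a preincubation of 24 h, the same lipid carrier and 48 h between transfection and RNA isolation. Each group was 1 sample read on 1 array (n = 1), so the values carry no replicate error and the groups could not be tested against each other. Precision is limited by this number of arrays. The arrays carry no probe for the Fam222B transcript, and the knockdown itself was not measured here.

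A miRNA guides Argonaute to messenger RNAs mainly through its seed, bases 2 to 8 counted from the 5′ end, and lowers the stability and translation of these messages. miR-29 is known for targeting messages of collagens and other matrix proteins, of the DNA methyltransferases Dnmt3a and Dnmt3b, and of the survival protein Mcl1. Its transcription is known to be repressed by Myc, and it is widely described as low in invasive tumours. The 3 mature sequences, from RefSeq (GRCm38.p6), are shown with the seed in capitals because the family is defined by it and its members differ only further downstream.
miR-29a-3p: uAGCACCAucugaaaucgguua
miR-29b-3p: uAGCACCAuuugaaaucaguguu
miR-29c-3p: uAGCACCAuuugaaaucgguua
RefSeq held a mature sequence for 1614 of the 1900 probes, and 3 of these had this seed, which were the 3 members. Counted from the 5′ end, miR-29a-3p and miR-29c-3p differ at a single base, C10U, and are alike at the other 21 of 22 positions. miR-29b-3p and miR-29c-3p differ at A18G, G21U and U22A over 22 positions, and miR-29b-3p has 1 more base at its 3′ end. Among the 1614 probes with a sequence, the closest other miRNA differed by 8 or more bases from each member (ends that extend past the other sequence counted). The other 286 probes could not be compared. How far the miR-29a-3p and miR-29c-3p probes also bind each other's target was not tested.

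The 3′ end of miR-29b-3p holds AGUGUU, a 6-base element described in human cells as directing miR-29b to the nucleus. It is shown in capitals here, since it is the main feature that sets this member apart.
miR-29b-3p: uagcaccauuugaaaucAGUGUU
The element lies at bases 18 to 23, is absent from miR-29a-3p and miR-29c-3p, and occurs in 12 of the 1679 mature mouse sequences of that table (0.715%). The members were 22, 23 and 22 bases long with 40.9%, 34.8% and 36.4% G and C in the order a, b, c, below the median of 57.1% over the 774 matched miRNAs detected on both arrays.

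The family comes from 2 clusters, and the 4 hairpins are shown with both mature arms in capitals to make clear which product belongs to which locus.
Mir29a: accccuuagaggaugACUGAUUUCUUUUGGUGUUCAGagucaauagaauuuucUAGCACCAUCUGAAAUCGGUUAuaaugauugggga
Mir29b-1: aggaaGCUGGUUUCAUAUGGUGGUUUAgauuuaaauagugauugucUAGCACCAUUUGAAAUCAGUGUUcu
Mir29b-2: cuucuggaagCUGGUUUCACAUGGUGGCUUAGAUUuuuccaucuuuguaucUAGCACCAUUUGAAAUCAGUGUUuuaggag
Mir29c: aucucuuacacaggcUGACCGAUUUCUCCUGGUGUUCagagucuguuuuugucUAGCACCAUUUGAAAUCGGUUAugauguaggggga
In GRCm38.p6, Mir29a is at chr6:31062660-31062747 and Mir29b-1 at chr6:31063023-31063093, both on the minus strand, with 275 bases between them and no other annotated gene over them. Mir29b-2 is at chr1:195037040-195037120 and Mir29c at chr1:195037547-195037634, both on the plus strand, with 426 bases between them and inside the long non-coding RNA gene A330023F24Rik. miR-29a-3p is thus made from chromosome 6 alone and miR-29c-3p from chromosome 1 alone. miR-29b-3p is made from both, and its single probe cannot tell the clusters apart.

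Levels are given as net intensity, the median brightness of a spot at 635 nm less a background of 70.3 units (Control-siRNA) or 69.9 units (Fam222B-siRNA), which is the mean over the 896 blank spots of that array. The spot SD beside a value combines the spread of 5 bright control probes printed 8 times each on every array (pooled coefficient of variation 4.67% and 4.78%) with the SD across blank spots, 1.54 and 1.66 units. It holds the spread between spots of one array and nothing of the spread between cultures. A probe was called detected above the mean plus 2 SD of the blank spots, after 5% were left out at each end, which puts the thresholds at 2.28 and 2.59 net units on the respective arrays. By this measure 1219 and 958 of the 1900 probes were detected, 910 of them on both arrays.

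All 3 members were far above the blank spots in both groups. miR-29a-3p, the chromosome 6 member, gave 330 net units (spot SD 15.5) with Control-siRNA and 334 (spot SD 16.04) in Fam222B-siRNA cells. miR-29b-3p, made from both clusters, gave 231 net units (spot SD 10.9) and 253 (spot SD 12.2) in the same order. miR-29c-3p, the chromosome 1 member, gave 57.4 net units (spot SD 3.09) and 55.6 (spot SD 3.13). The order of brightness was therefore a, b, c on both arrays, with gaps between neighbours several times the spot SD, and between the arrays a and c differed by less than 1 spot SD and b by more. Brightness also depends on how well each probe binds its target, so this order is one of probes and not of molecule numbers.

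**Figure D1:**
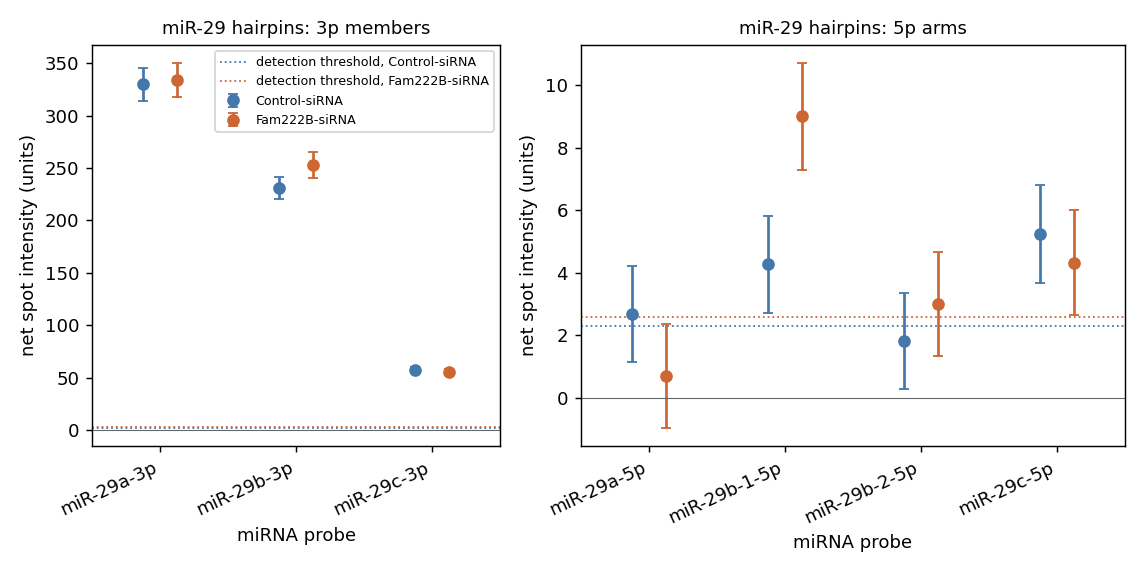
Net spot intensity (linear axis, units) of the 3 miR-29 members and, on a scale of its own, of the 4 5p arms of the same hairpins on the Control-siRNA and the Fam222B-siRNA array. Points are single spots, bars are 1 spot SD and dotted lines the detection thresholds of 2.28 and 2.59 units: the members lie far above them and the 5p arms near them.

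Among the 1900 probes miR-29a-3p held rank 38 with Control-siRNA and rank 37 with Fam222B-siRNA. miR-29b-3p held rank 56 and rank 50, and miR-29c-3p rank 146 and rank 147. The members stayed at nearly the same place in the order of brightness. Together they gave 618 and 643 net units, which was 0.411% of the net signal of all detected probes with Control-siRNA and 0.429% with Fam222B-siRNA. On arrays where the brightest pair of probes took 52.3% and 52.0% of the net signal, such shares are small even for well measured miRNAs. In RNA of a whole culture, fewer cells that hold a miRNA and less of it per cell cannot be told apart.

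The comparison between groups asked whether the family's level differed when Fam222B siRNA had been given. The 3 members gave similar signals in both groups, and the widest gap was that of miR-29b-3p. As measured, with no scaling between arrays, miR-29a-3p differed by 1.35% and miR-29b-3p by 9.56%, both higher in Fam222B-siRNA cells, and miR-29c-3p by -3.01%. Over the 910 probes detected on both arrays the median unscaled log2 difference was -0.12, and differences are given from here on relative to it. On that scale the log2 difference of Fam222B-siRNA over Control-siRNA was 0.14 for miR-29a-3p (1.10-fold, spot SD 0.097), 0.25 for miR-29b-3p (1.19-fold, spot SD 0.097) and 0.074 for miR-29c-3p (1.05-fold, spot SD 0.11). None of the 3 reached 1.5-fold in either direction, a size that 15.7% of the 910 probes, most of them dim, did reach. Probes of like brightness mostly fell short of it too. Among the 100 closest to each member, the 10th to 90th percentiles were -0.057 to 0.29 (a), -0.062 to 0.29 (b) and -0.15 to 0.27 (c). miR-29c-3p lay within 2 spot SD of no difference, as did miR-29a-3p, which moved to 2.01 spot SD (0.19) when the arrays were scaled to the control probes. miR-29b-3p lay 2.57 spot SD above it, where 7.80% of the 910 probes were higher by more than 2 spot SD.

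These positions depended on which probes set the scale, and which zero is right was not decided here. After background subtraction the 32 negative control spots had a median of 0.626 net units with Control-siRNA and -0.667 with Fam222B-siRNA. How far this offset moves the median over the 910 probes was not tested. The scale is set by all 910 probes, most of them dim, while the 96 bright probes, those of 100 net units or more in both groups, had a median difference of 0.14 (SD 0.14 across probes), and 75 of the 96 lay above 0. Among those 96, 27.1% were higher by more than 2 spot SD and 2.08% lower. With the median of these bright probes set to 0 instead, a scale chosen after the values were seen, miR-29b-3p was at 0.11, within 2 spot SD. miR-29a-3p was then at 0.0011 and miR-29c-3p at -0.062. With no scaling miR-29b-3p was at 0.13, also within 2 spot SD. Scaling to the control probes, whose mean signal differed by -11.4% on the Fam222B-siRNA array, moved it the other way, to 0.31 (3.16 spot SD), with miR-29c-3p at 0.13. With the mean of the spots named No Probe as background it was at 0.18 (1.90 spot SD).

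**Figure D2:**
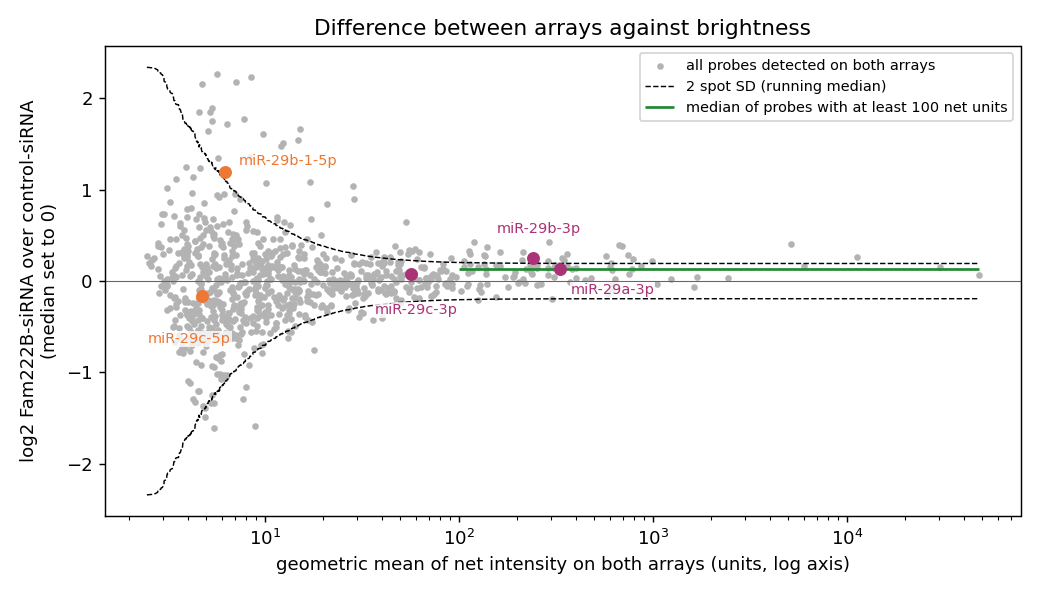
Log2 difference of Fam222B-siRNA over Control-siRNA (median of all probes set to 0) against the geometric mean of net intensity (units, log axis) for the 910 probes detected on both arrays, with the miR-29 probes in colour. Dashed lines are 2 spot SD and the green line is the median of 0.14 over the 96 probes of 100 net units or more, near which miR-29a-3p lies.

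Each member was also set beside the 100 other probes closest to it in brightness, as a description of these arrays. For miR-29a-3p these probes ran from 81.0 to 1246 net units and had a median difference of 0.12 (SD 0.14), and 44 of the 100 had a higher value than the member. For miR-29b-3p they ran from 75.9 to 751 net units, the median was 0.11 (SD 0.14), and 16 of the 100 were higher. For miR-29c-3p they ran from 35.7 to 86.7 net units, the median was 0.035 (SD 0.17), and 40 of the 100 were higher. All 3 members were within about 1 SD of these probes' median, with miR-29b-3p toward the upper side. The ranges of the first 2 sets are wide, since bright probes are few, and the sets share 94 probes.

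The ratio of members within an array is moved by no scaling of the whole array, and its change between arrays cancels how well each probe binds its own target. Binding to the target of another member would not cancel. It was not tested, and miR-29a-3p and miR-29c-3p differ at a single base. The ratio of miR-29a-3p to miR-29c-3p, the products of separate chromosomes, was 5.75 with Control-siRNA and 6.01 with Fam222B-siRNA, a log2 change of 0.064 (spot SD 0.15). The ratio of miR-29a-3p to miR-29b-3p was 1.43 and 1.32, a log2 change of -0.11 (spot SD 0.14). That of miR-29c-3p to miR-29b-3p was 0.248 and 0.220, a log2 change of -0.18 (spot SD 0.15). Each change was under 2 spot SD, so no shift of one member against another, or of one cluster against the other, was detectable at this precision. Both changes that involve miR-29b-3p went toward more of it in Fam222B-siRNA cells, but they share its single spot on each array.

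The position of the spots was looked at as well. miR-29c-3p and miR-29a-3p were printed side by side in block 12, and miR-29b-3p in block 22 of the 32 blocks. The other probes detected on both arrays had a median difference of -0.022 in block 12 (22 probes) and -0.21 in block 22 (31 probes). The members of both blocks therefore lay above the middle of their own blocks. Over all blocks together, 75 of the 96 probes of 100 net units or more lay above 0. They were not counted block by block. Brightness was not separated from position here. With the blank spots of the same block as background, the differences were 0.13, 0.25 and 0.062 in the order a, b, c, close to those above.

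**Figure D3:**
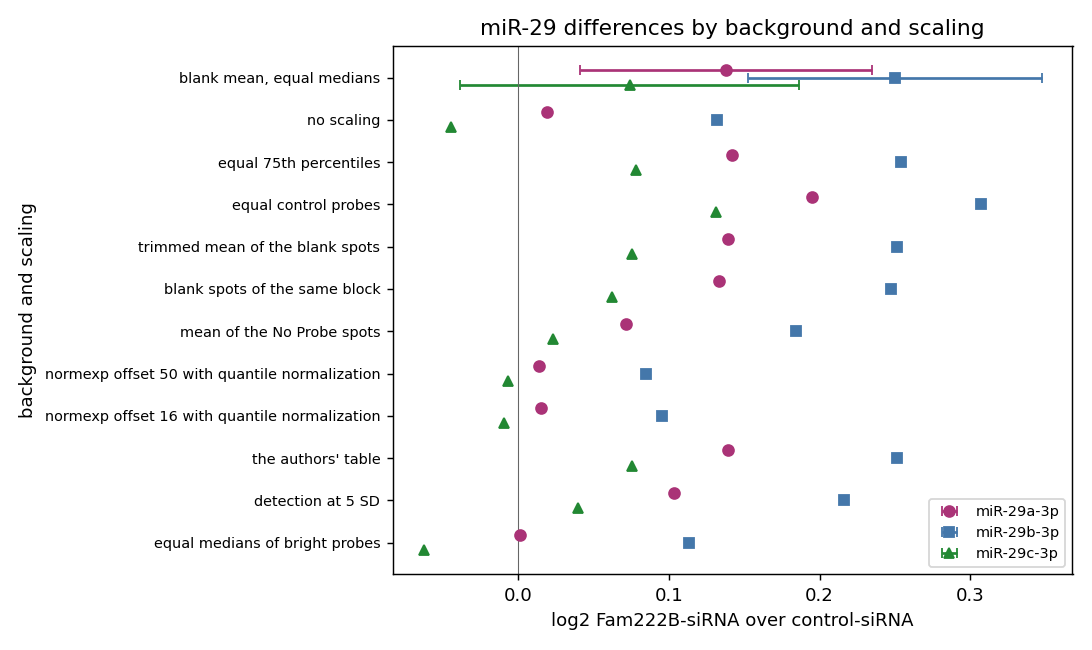
Log2 difference of Fam222B-siRNA over Control-siRNA for miR-29a-3p, miR-29b-3p and miR-29c-3p under each background and scaling (rows); bars on the first row are 1 spot SD, and the local background column is not drawn. miR-29b-3p stays the highest of the 3 in every row. All 3 shift by the same amount where the scaling alone changes, and by unequal amounts with normexp and quantile normalization.

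The let-7, miR-30 and miR-23/27/24 families, which are bright in most cells, were compared on the same scale. The 11 probes of let-7 and miR-98, regulators of differentiation, ran from 42.3 to 954 net units in Control-siRNA cells and had a median difference of 0.14, with 9 of 11 above 0. The 5 miR-30 probes ran from 153 to 655 net units and had a median of 0.12, with 4 of 5 above 0. The 5 probes of the miR-23/27/24 clusters ran from 112 to 338 net units and had a median of 0.14, with 5 of 5 above 0. The miR-29 median of 0.14, with 3 of 3 above 0, is the value of miR-29a-3p, and the 96 bright probes had a median of 0.14 too. Those 96 include miR-29a-3p, miR-29b-3p and most probes of the other families, so these medians are not independent. The 4 family medians lay between 0.12 and 0.14, closer to each other than the spot SD of a single probe. With no scaling they were 0.019 for miR-29, 0.020 for let-7 and miR-98, 0.0050 for miR-30 and 0.023 for miR-23/27/24, and scaled to the control probes the miR-29 median was 0.19.

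**Figure D4:**
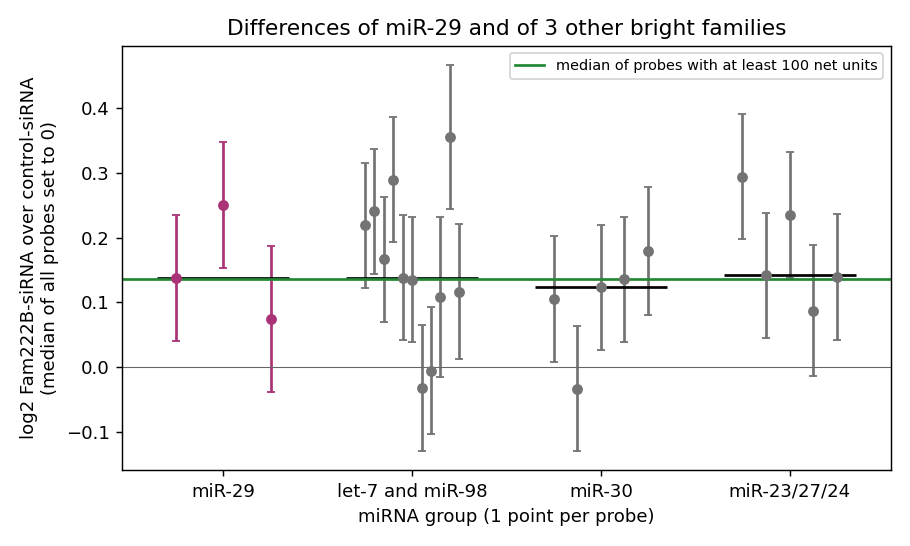
Log2 difference of Fam222B-siRNA over Control-siRNA for each probe of miR-29 (3), let-7 with miR-98 (11), miR-30 (5) and miR-23/27/24 (5); bars are 1 spot SD, black lines the group medians. The medians of 0.12 to 0.14 lie along the green line, the median of the 96 probes of 100 net units or more, which include most of the probes drawn.

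The probes nearest to each member in log2 net intensity over the 2 arrays were taken as its closest matches in level. For miR-29a-3p they were miR-30a-5p (330 net units in Control-siRNA and 327 in Fam222B-siRNA cells, distance 0.030) and miR-21a-5p (313 and 319, distance 0.10). For miR-29b-3p they were miR-301a-3p (225 and 244, distance 0.063) and miR-7671-3p (242 and 251, distance 0.067). For miR-29c-3p they were miR-6908-5p (59.4 and 54.2, distance 0.064) and miR-484 (60.0 and 56.7, distance 0.070). With 2 arrays this likeness is one of level alone.

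The 5p arms of the 4 hairpins, the strands that are mostly discarded when the 3p strand is loaded into Argonaute, were near the limit of detection. miR-29a-5p gave 2.68 net units with Control-siRNA and 0.693, not detected, with Fam222B-siRNA. miR-29b-2-5p gave 1.80, not detected, and 3.00. miR-29c-5p was detected in both, at 5.24 and 4.32 net units (log2 difference -0.16, spot SD 0.71). These values overlapped within their spot SDs of about 1.5 to 1.7 units. The 32 negative control spots of each array reached 4.67 net units with Control-siRNA and 2.89 on the Fam222B-siRNA array, so 1 of the 4 5p arms, miR-29c-5p, was above the highest of them with Control-siRNA. With Fam222B-siRNA 3 of the 4 were, all but miR-29a-5p. This limit was lower on that array, where miR-29b-2-5p (3.00) and miR-29c-5p (4.32) lay below the 4.67 net units of the Control-siRNA array. The share of all probes above each limit was not computed, so these counts cannot be compared between arrays.

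miR-29b-1-5p, from the chromosome 6 cluster, gave 4.26 net units (spot SD 1.55) with Control-siRNA and 9.0 (spot SD 1.72) with Fam222B-siRNA. The first value lay below the highest negative control spot of its array and was not detected at 5 SD, so no fold is given. The spot was in block 26, where the other 32 probes detected on both arrays had a median difference of 0.36, and the part of the block in the value was not tested. The blank spots of that block averaged 69.8 and 69.9 units.

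The label of a melanoma line was set beside marker miRNAs. miR-211-5p, encoded in a melanocyte gene, was bright at 264 net units with Control-siRNA and 326 with Fam222B-siRNA. Its partner arm miR-211-3p gave 83.3 and 70.4 net units, and the related miR-204-5p gave 36.3 and 30.2. The 13 markers of muscle, blood, liver, neurons and epithelium were dim, from 0.280 to 5.63 net units with Control-siRNA and from -1.25 to 3.66 with Fam222B-siRNA. Of these 11 passed the detection threshold on the first array and 2 on the second, where 64.2% and 50.4% of all 1900 probes did. Most of the 13 lay below the highest negative control spot of the array, at 4.67 and 2.89 net units. These counts therefore say little about the markers, and their difference between arrays was not tested.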

How the data were processed

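Total RNA of B16 cells was labelled with Cy5 and hybridised to 1-colour 3D-Gene arrays, 1 per group, per the labels' protocols. The deposited scanner files give each spot's median intensity with no background subtracted, per the file headers. The scanner software is not given in the sources used here. In the authors' deposited table of processed intensity, each column followed from the spot medians by taking off 70.2 or 69.8 units and multiplying by 3.40 or 3.69.

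The mean of the blank spots was subtracted. The files also hold a column headed BG_Median. What it measures is not given in the sources used here, and it was kept as an alternative (called the local background column), because it exceeded the spot for miR-29b-3p on the Control-siRNA array and for miR-29a-3p on the Fam222B-siRNA array. Log2 differences were shifted to a median of 0 over the 910 probes detected on both arrays, and spots flagged by the scanner (1 miRNA probe per array) were not counted as detected. Alternatives included normexp (limma 3.58.1, R 4.3.3) with quantile normalization. Other steps ran in Python 3.11.15. Of these, the scaling and the log2 differences were tested on a simulated pair of arrays, and the rest were not. With 1 array per group no test was made.

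Named miRNAs were the 3 members, the 4 other arms, any other probe with the same seed, and the 2 probes nearest each member in level. The miR-211 arms and miR-204-5p were named as melanocyte markers. The members, lists and settings were chosen with earlier results of these data known.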

Additional observations from a re-analysis of the deposited data

How the results depend on the processing

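Of 12 other settings, equal medians of the 96 bright probes was chosen after seeing the data. Equal 75th percentiles, control probes, the trimmed blank mean, blank spots of the same block, the No Probe spots, the authors' table and detection at 5 SD each moved the members' differences by less than 1 spot SD. In 2 cases this crossed 2 spot SD: miR-29b-3p fell to 0.18 with the No Probe spots, and miR-29a-3p reached 0.19 with the control probes. With no scaling the differences of miR-29a-3p, miR-29b-3p and miR-29c-3p were 0.019, 0.13 and -0.044, with a median of 0.019. With normexp and quantile normalization they were 0.014, 0.085 and -0.0065 (median 0.014) at an offset of 50, and 0.015, 0.096 and -0.0094 (median 0.015) at an offset of 16. The normexp settings change background, offset and normalization together, and the cause was not tested. With equal medians of bright probes they were 0.0011, 0.11 and -0.062 (median 0.0011). The files' local background column, whose meaning is not known here, left no positive net value for miR-29a-3p or miR-29b-3p on one array, put miR-29c-3p at -3.04 and gave shares of net signal of 0.284% and 0.0824%. The log2 changes of the ratios between members were computed under 4 of the settings: the trimmed blank mean, same-block blank spots, No Probe spots and the authors' table. There they stayed between -0.19 and -0.16 (c to b), at -0.11 (a to b) and between 0.048 and 0.071 (a to c). They were not computed with normexp, where the members' differences given above lie closer together. At 5 SD, 0 of the 4 other arms were detected with Control-siRNA and 1 with Fam222B-siRNA, against 3 and 3. The number of probes past 1.5-fold was 143 of 910, and became 0 and 5 of 910 with normexp at offsets of 50 and 16. It was 343 with the local background column, which compared 725 probes, and 25 with detection at 5 SD, which compared 554 probes. No paired analysis was possible because each group had 1 array, and for the same reason no array could be left out. Below about 10 net units the spot SD is a large part of the signal.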
